A study of Mus musculus with 6 samples.

Results

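The collagen genes of the gastrocnemius, a calf muscle, were compared between mice with C26 tumors and control mice. The members were all rows whose Entrez gene ID maps to a mouse symbol made of Col, a chain type number, the letter a and a chain number. This gave 34 collagen genes among the 13363 genes with deposited values. The mouse annotation has 44 such symbols, and 10 were not among the deposited genes: Col10a1, Col11a1, Col11a2, Col26a1, Col2a1, Col4a6, Col6a4, Col6a5, Col9a1 and Col9a2. Col19a1 was kept apart and is described last, because its values were far above those of all other collagens. The other 33 were sorted by symbol into 8 fibrillar, 7 basement membrane, 4 microfibrillar and 14 other collagens.

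C26 is a colon carcinoma line of mouse origin. All mice were male and of the Balb/c strain, bought at an age of 6 weeks and kept for 1 week before the experiment. The C26 mice received 500000 tumor cells under the skin of the right flank and the controls carried no tumor, so host and tumor share a strain. Muscles of 3 C26 mice and 3 controls were sequenced, out of 10 mice per group, and each muscle is 1 replicate. The p-values below therefore measure the spread between these 3 muscles of each group. All 11 myofiber markers examined were detected, and Acta1, the skeletal muscle actin gene, lay between 10780 and 27270 FPKM in the 6 muscles. Values are FPKM, read counts scaled to transcript length and library size, so levels of different genes can be set side by side. Tests used TPM, which are FPKM rescaled to the same total in each muscle, after scaling by TMM factors and a log2 transformation with 1 added.

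Collagens are triple-helical proteins built from 3 chains. Fibrillar collagens (types I, III and V) form the cables of tendon and of the connective tissue sheaths in muscle, and they are made mainly by fibroblasts and tendon cells. Type IV collagen forms the sheet-like network of the basement membrane around each myofiber and capillary, type VI collagen forms beaded microfibrils next to that membrane, and types XV and XVIII sit in the basement membrane zone. In bulk muscle, fewer cells of a type and less RNA per cell cannot be told apart.

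Several of these genes lie in pairs in the genome. On GRCm38, Col3a1 (chr1:45311538-45349706, plus strand) and Col5a2 (chr1:45374321-45503282, minus strand) face each other across 24.6 kb. Col6a2 (chr10:76595762-76623630) and Col6a1 (chr10:76708792-76726168) lie on the minus strand 85.2 kb apart. Col4a4 and Col4a3 on chromosome 1 start back to back with 71 bases between them. Col4a1 (chr8:11198423-11312826, minus strand) and Col4a2 (chr8:11312805-11449287, plus strand) also start back to back, and their annotated ends overlap. The other leading genes are Col1a1 (chr11:94936224-94953042, plus strand), Col1a2 (chr6:4504814-4541544, plus strand) and Col15a1 (chr4:47208161-47313167, plus strand).

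Promoter windows, from 250 bases before to 50 bases after a RefSeq start on GRCm38.p6, were found for 27 of the 34 genes. Windows of Col12a1, Col14a1, Col1a1, Col22a1, Col4a3, Col5a2 and Col9a3 were not used here. The windows of Col3a1 (chr1:45311288-45311587, plus strand), Col1a2 (chr6:4505368-4505667, plus strand) and Col6a1 (chr10:76725995-76726294, minus strand) are shown because these genes were among those with the largest decreases. Those of Col4a1 (chr8:11312777-11313076, minus strand) and Col4a2 (chr8:11312555-11312854, plus strand) are shown because they share bases and belong to the pair that differed least among the abundant collagens. The RefSeq start lies 804 bases inside the GENCODE gene for Col1a2 and 124 bases inside for Col6a1, so the whole Col1a2 window and part of the Col6a1 window lie within those genes, whereas the starts of Col3a1, Col4a1 and Col4a2 are the same in both. Capitals mark the letters CCAAT (the motif known for NF-Y), GGGCGG (the motif known for Sp1) and TATAAA (known as the TATA box) or their complements in the first 3 windows, and the 78 bases shared by both windows (chr8:11312777-11312854) in the last 2.
Col3a1: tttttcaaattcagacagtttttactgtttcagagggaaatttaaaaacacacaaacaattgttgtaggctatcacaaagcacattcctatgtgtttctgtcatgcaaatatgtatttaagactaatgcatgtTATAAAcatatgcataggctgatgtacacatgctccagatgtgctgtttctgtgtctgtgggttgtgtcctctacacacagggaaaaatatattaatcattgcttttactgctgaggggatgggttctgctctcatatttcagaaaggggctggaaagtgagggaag
Col1a2: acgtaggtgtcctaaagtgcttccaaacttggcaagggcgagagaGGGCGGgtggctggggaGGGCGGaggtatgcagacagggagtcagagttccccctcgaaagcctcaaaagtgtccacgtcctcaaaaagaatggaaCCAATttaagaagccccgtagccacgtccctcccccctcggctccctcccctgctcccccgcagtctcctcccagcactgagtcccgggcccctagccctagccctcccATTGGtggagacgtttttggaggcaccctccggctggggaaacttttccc
Col6a1: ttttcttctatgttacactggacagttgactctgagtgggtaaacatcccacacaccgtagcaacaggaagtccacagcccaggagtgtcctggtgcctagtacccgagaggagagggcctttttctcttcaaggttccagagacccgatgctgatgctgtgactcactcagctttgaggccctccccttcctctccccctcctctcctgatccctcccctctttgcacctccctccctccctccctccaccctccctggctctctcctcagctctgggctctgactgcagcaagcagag
Col4a1: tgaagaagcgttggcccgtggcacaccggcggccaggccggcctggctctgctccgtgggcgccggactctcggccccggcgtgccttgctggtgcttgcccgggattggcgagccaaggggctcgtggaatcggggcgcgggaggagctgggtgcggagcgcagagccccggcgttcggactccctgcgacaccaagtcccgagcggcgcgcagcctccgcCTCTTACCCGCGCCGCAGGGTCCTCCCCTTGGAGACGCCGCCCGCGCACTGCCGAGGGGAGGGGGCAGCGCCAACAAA
Col4a2: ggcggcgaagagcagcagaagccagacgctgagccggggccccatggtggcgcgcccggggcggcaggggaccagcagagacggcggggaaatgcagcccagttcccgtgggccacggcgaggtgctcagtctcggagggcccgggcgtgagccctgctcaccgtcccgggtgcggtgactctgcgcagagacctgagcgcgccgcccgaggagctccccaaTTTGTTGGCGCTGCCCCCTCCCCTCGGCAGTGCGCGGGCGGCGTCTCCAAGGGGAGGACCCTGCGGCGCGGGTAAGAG
Over both strands, CCAAT was present in 34.5% of the 29 collagen windows and in 37.4% of all 32851 windows of this length. GGGCGG was present in 58.6% and 35.7%, and TATAAA in 10.3% and 13.6%. The median GC content was 60.3% and 52.7%. Motifs can share bases in a window, and each was counted on its own. Among collagen windows, GGGCGG was present in 62.5% of those whose gene was lower in C26 muscle and in 58.3% of those whose gene did not pass the test, so these letters occurred at like shares in both.

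Collagen genes were lower in the muscles of C26 mice far more often than higher. Of the 33 genes, 18 passed limma at a p under 0.05 after Benjamini-Hochberg (BH) adjustment over all genes and were lower, against 14.5% of all genes tested. Without C26 replicate 1 the count was 11, against 5.01% of all genes in that fit. With any other muscle left out it was 13 to 20, against 5.42% to 16.2% of all genes. The count of higher collagens was 0 by limma, and it was also 0 at an unadjusted p under 0.05, whereas 19.4% of all genes were higher. At a fold change above 4, which the study used to define DEGs, 9 were lower and 0 higher, against 1.73% and 1.77% of all genes. Lower genes made up 42.7% of all calls in the table, and 59.9% where FPKM were used as deposited, under which 18 collagens were lower too. The log2 fold change was below 0 for 30 of the 33, against 53% of all genes. In 24 of the 33, every C26 muscle lay below every control muscle, and in 0 above every control, against 34.6% and 18.7% of all genes. The median log2 fold change was -0.84 over the 33 collagens and -0.05 over all genes. As a description without a test, their summed level was 64.5 ± 16.6 FPKM in C26 muscles and 303 ± 77.6 FPKM in controls (mean ± SD, n = 3).

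**Figure D1:**
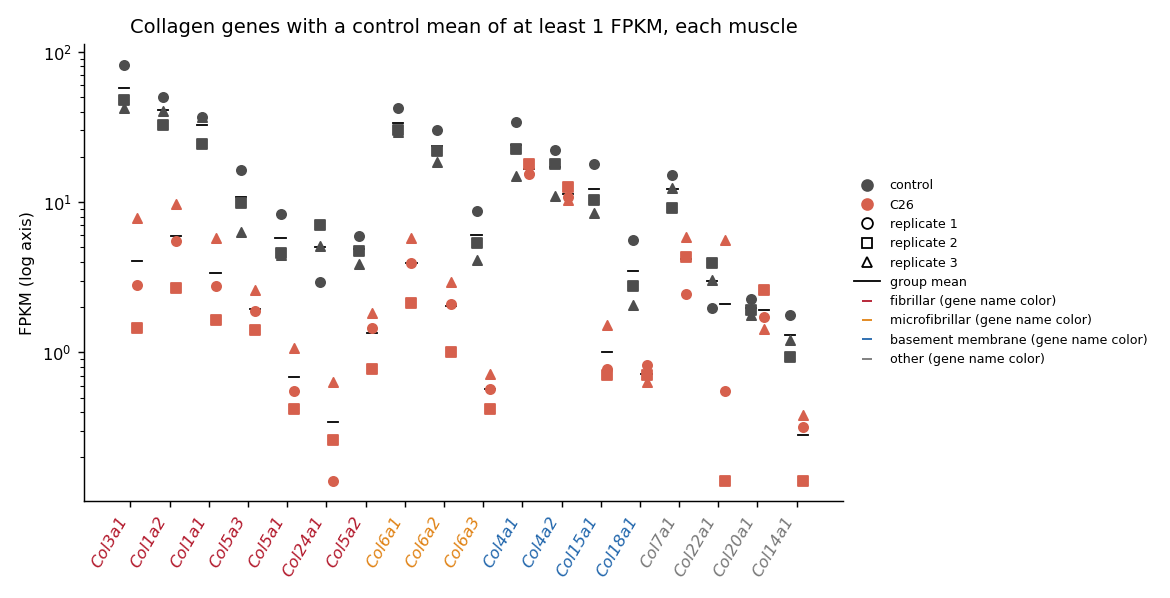
FPKM on a log axis for the 18 collagens of the 4 classes whose control mean was at least 1 FPKM, with controls in gray, C26 muscles in red, a symbol shape for each replicate and a bar for the group mean. The 3 C26 muscles lie below the 3 controls for all 7 fibrillar and all 3 type VI genes shown, while the groups overlap for Col4a1, Col4a2, Col22a1 and Col20a1.

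The classes differed in how many members were lower. All 8 fibrillar genes were lower, with a median log2 fold change of -2.27, and 5 of them passed the fold of 4. Of the 4 microfibrillar genes 3 were lower, with a class median of -2.54. Of the 7 basement membrane genes 4 were lower, with a class median of -0.43, and of the 14 other collagens 3 were lower, with a median of -0.32. Of all genes 14.5% were lower. Without C26 replicate 1, the lower counts were 6 fibrillar, 3 microfibrillar, 2 basement membrane and 0 other collagens, against 5.01% of all genes. Level and class went together in part. A control mean of at least 1 FPKM was reached by 7 fibrillar, 3 microfibrillar, 4 basement membrane and 4 other collagens, and of these 18 genes 14 were lower, against 15.9% of the 10781 genes at that level. The added 1 compresses differences of genes below about 1 TPM, so the 15 collagens with a lower control mean could hardly reach the fold of 4.

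**Figure D2:**
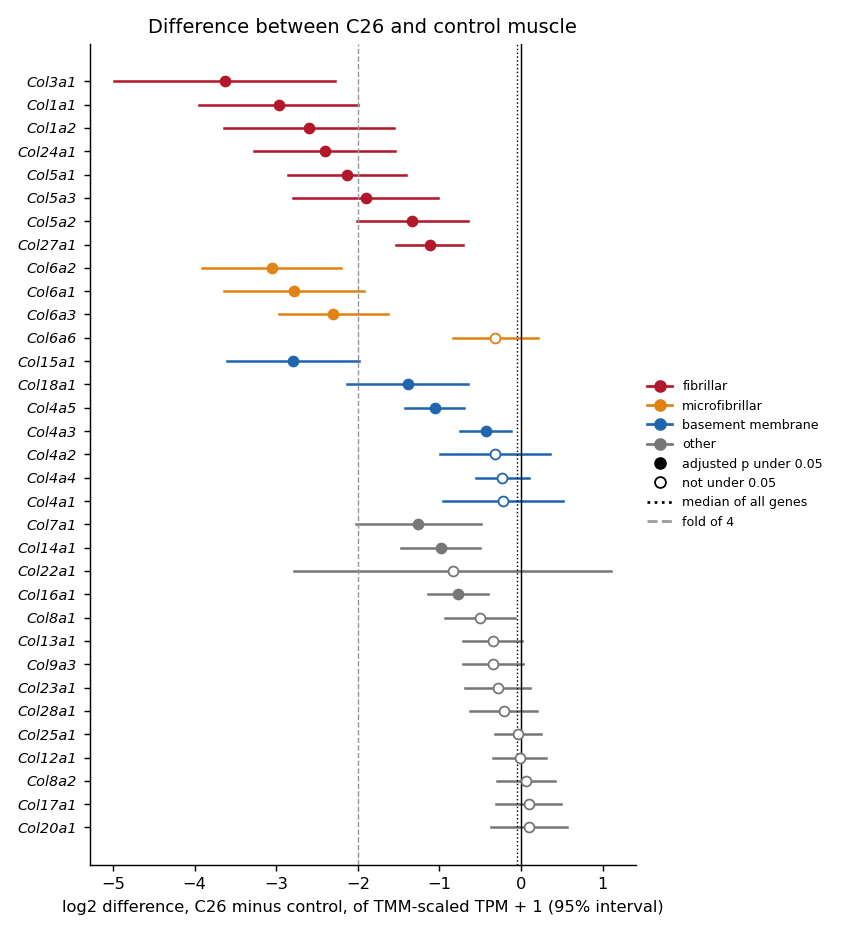
Log2 fold change (C26 minus control, TMM-scaled TPM plus 1) of each of the 33 collagens with its 95% interval, by class. Filled points have an adjusted p under 0.05 from limma. All fibrillar points and all but 1 microfibrillar point are filled, the dotted line is the median of all genes and the dashed line is a fold of 4.

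The genes of type I and type III collagen, the main components of muscle connective tissue, showed the largest log2 fold changes of the fibrillar class on the scale with 1 added, which compresses the changes of less abundant genes. Col3a1 (Entrez ID 12825), the single chain of type III collagen, had 2.82, 1.45 and 7.87 FPKM in C26 replicates 1, 2 and 3, and 82.1, 48.2 and 42.0 FPKM in control replicates 1, 2 and 3. The highest C26 muscle was far below the lowest control, and the C26 mean was 7.05% of the control mean. The log2 fold change was -3.63 (SE 0.564, limma, adjusted p = 0.00705). Col1a1 (12842), the α1 chain of type I collagen, had 2.78, 1.64 and 5.76 FPKM in the C26 muscles and 37.0, 24.4 and 36.8 FPKM in the controls. Its log2 fold change was -2.97 (SE 0.406, limma, adjusted p = 0.00523), with a 95% interval from -3.94 to -2.0. Col1a2 (12843), the α2 chain that joins α1 in the type I helix, had 5.51, 2.67 and 9.70 FPKM against 50.01, 32.8 and 40.7 FPKM. It differed by -2.60 on the log2 scale (SE 0.435, limma, adjusted p = 0.00839). In all 3 genes C26 replicate 3 was highest and C26 replicate 2 lowest of the C26 muscles, and the groups were well apart.

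Type V collagen, which starts type I fibrils and limits their width, was lower in all 3 of its chains. Col5a1 had 0.55, 0.42 and 1.07 FPKM in the C26 muscles and 8.30, 4.57 and 4.44 FPKM in the controls (log2 fold change -2.13, SE 0.301, limma, adjusted p = 0.00575). Col5a3 had 1.89, 1.4 and 2.58 FPKM against 16.4, 9.81 and 6.36 FPKM (log2 fold change -1.91, SE 0.369, limma, adjusted p = 0.0122). Col5a2 had 1.45, 0.77 and 1.82 FPKM against 5.99, 4.73 and 3.85 FPKM (log2 fold change -1.33, SE 0.284, limma, adjusted p = 0.0157). The groups did not overlap in any of these chains, and Col5a2 kept the largest part of its control mean, 27.7% against 11.8% for Col5a1 and 18% for Col5a3. Col5a3 was no longer below 0.05 without C26 replicate 1 (limma, adjusted p = 0.0512), nor with a correction for GC content and the replicate number as a block (limma, adjusted p = 0.0507), while its log2 fold change was -1.89 and -1.70. Col5a2 likewise gave a limma adjusted p of 0.0548 without C26 replicate 1 and of 0.0629 without control replicate 1, with log2 fold changes of -1.38 and -1.21.

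The less abundant fibrillar genes also fell. Col24a1, a fibrillar collagen known from developing bone, had 0.14, 0.26 and 0.63 FPKM in the C26 muscles and 2.96, 7.02 and 5.11 FPKM in the controls. Its log2 fold change was -2.40 (SE 0.360, limma, adjusted p = 0.00646), and it was the only one of the 5 genes past the fold of 4 in this class whose highest control was replicate 2. Col27a1, a fibrillar collagen best known from cartilage, had 0.07, 0.02 and 0.05 FPKM against 0.86, 0.58 and 1.29 FPKM. Its C26 mean was 5.13% of the control mean, the lowest share of all 33 genes and followed by the 6.83% of Col24a1, while its log2 fold change with 1 added was only -1.12 (SE 0.171, limma, adjusted p = 0.00676). With 0.1 added in place of 1, the log2 fold change of Col27a1 was -2.99 and that of Col24a1 -3.56. On that scale 21 collagens were lower, against 16.9% of all genes, and 12 passed the fold of 4, against 4.24% of all genes.

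Type VI collagen fell in all 3 of its main chains. Col6a2 (12834) had 2.11, 1.01 and 2.96 FPKM in the C26 muscles and 30.2, 22.0 and 18.6 FPKM in the controls, a log2 fold change of -3.06 (SE 0.356, limma, adjusted p = 0.00359). Col6a1 (12833) had 3.95, 2.12 and 5.77 FPKM against 42.2, 29.98 and 29.2 FPKM, a log2 fold change of -2.78 (SE 0.356, limma, adjusted p = 0.00457). Col6a3 (12835) had 0.57, 0.42 and 0.72 FPKM against 8.73, 5.31 and 4.11 FPKM, a log2 fold change of -2.30 (SE 0.279, limma, adjusted p = 0.00397). The groups did not overlap in any of the 3, and the C26 means were 8.58%, 11.7% and 9.42% of the control means of Col6a2, Col6a1 and Col6a3. Col6a6, a chain that can take the place of α3, was low throughout, with 0.28, 0.20 and 0.21 FPKM in the C26 muscles and 0.73, 0.60 and 0.19 FPKM in the controls. Its groups overlapped because control replicate 3 had the lowest value, and its log2 fold change was -0.31 (limma, adjusted p = 0.295). Without that muscle it was -0.54 (limma, adjusted p = 0.0325). Of the 50-base windows in Col6a6 transcripts 3.7% also occur in other genes, so its reads could be split in part.

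The basement membrane class was divided. Col4a1 (12826) and Col4a2 (12827), the chains of the common type IV network, were the genes of this class with the highest levels, and neither passed the test. Col4a1 had 15.4, 17.9 and 16.6 FPKM in the C26 muscles and 34.4, 22.5 and 14.9 FPKM in the controls. The 3 C26 muscles were close together, and control replicate 3 lay below all of them. The log2 fold change was -0.22 (SE 0.306, limma, adjusted p = 0.588), with a 95% interval from -0.96 to 0.51. Col4a2 had 10.8, 12.6 and 10.3 FPKM against 22.3, 18.0 and 11.0 FPKM, and its log2 fold change was -0.32 (SE 0.281, limma, adjusted p = 0.399), with a 95% interval from -0.99 to 0.35. Both intervals still hold a decrease of about 1 on the log2 scale, but they do not reach the estimates of the type I and III chains or of Col6a1, Col6a2 and Col6a3. Without control replicate 3 Col4a2 was lower (log2 fold change -0.64, limma, adjusted p = 0.0239), and the log2 fold change of Col4a1 was -0.56 (limma, adjusted p = 0.0635). Without control replicate 1 that of Col4a1 was 0.05.

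Other genes of the basement membrane class fell by far more. Col15a1 (12819), the core protein of type XV collagen in the basement membrane zone of myofibers and capillaries, had 0.77, 0.71 and 1.53 FPKM in the C26 muscles and 17.9, 10.4 and 8.44 FPKM in the controls. The log2 fold change was -2.80 (SE 0.338, limma, adjusted p = 0.00395), and the C26 mean was 8.19% of the control mean. Col18a1, the source of the fragment endostatin, had 0.82, 0.71 and 0.63 FPKM against 5.63, 2.76 and 2.06 FPKM (log2 fold change -1.39, SE 0.309, limma, adjusted p = 0.0179). Col4a5, an X-linked chain of specialised basement membranes such as that of the kidney glomerulus, had 0.19, 0.02 and 0.05 FPKM against 0.95, 0.89 and 0.86 FPKM (log2 fold change -1.06, SE 0.151, limma, adjusted p = 0.00592). The groups did not overlap in these 3 genes, and the controls of Col4a5 were close together. Col4a3 and Col4a4 encode its partner chains. Col4a3 was lower, with 0.19, 0.12 and 0.20 FPKM against 0.57, 0.44 and 0.48 FPKM (log2 fold change -0.43, SE 0.129, limma, adjusted p = 0.0430). Col4a4 did not pass the test, with 0.26, 0.25 and 0.21 FPKM against 0.53, 0.45 and 0.34 FPKM (log2 fold change -0.23, limma, adjusted p = 0.223).

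The calls of Col18a1 and Col4a3 did not hold in all fits with a muscle left out, while their log2 fold changes stayed negative. Without C26 replicate 1 or 2, Col18a1 gave a limma adjusted p of 0.06 or 0.059, with log2 fold changes of -1.43 and -1.36, and under quantile normalization it was -1.07 (limma, adjusted p = 0.0749). Col4a3 kept its call only without C26 replicate 3 (limma, adjusted p = 0.0423), and each of the other 5 muscles left out gave values from 0.0538 to 0.139, with log2 fold changes from -0.46 to -0.37. With all muscles kept, Col4a3 also lost its call under quantile normalization (log2 fold change -0.13, limma, adjusted p = 0.499). The same held without TMM factors (limma, adjusted p = 0.0511), with the replicate block (limma, adjusted p = 0.108) and with GC correction and block (limma, adjusted p = 0.0918). Col4a3 also shares 4.66% of its 50-base windows with C430014B12Rik.

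The 14 other collagens were mostly present at low levels, and 3 of them passed the test as lower, against 14.5% of all genes, and the count was 0 without C26 replicate 1 or without control replicate 1, where 5.01% and 5.42% of all genes were lower. Col7a1, the collagen of anchoring fibrils in skin, had 2.43, 4.33 and 5.87 FPKM in the C26 muscles and 15.2, 9.12 and 12.4 FPKM in the controls (log2 fold change -1.26, SE 0.318, limma, adjusted p = 0.0262). Col14a1, a fibril-associated collagen that sits on the surface of type I fibrils, had 0.32, 0.14 and 0.38 FPKM against 1.77, 0.93 and 1.2 FPKM (log2 fold change -0.98, SE 0.202, limma, adjusted p = 0.0143). Col16a1, another fibril-associated collagen, had 0.06, 0.11 and 0.15 FPKM against 0.65, 0.48 and 0.94 FPKM (log2 fold change -0.77, SE 0.154, limma, adjusted p = 0.0132). The groups were apart in all 3. Each lost its call without C26 replicate 1 (limma, adjusted p = 0.063 for Col7a1, 0.0533 for Col14a1 and 0.0593 for Col16a1), with log2 fold changes of -0.95, -1.01 and -0.72. The same held without control replicate 1 (limma, adjusted p = 0.0925, 0.0524 and 0.0514), with log2 fold changes of -1.12, -0.83 and -0.79, and for Col7a1 also without C26 replicate 2 or control replicate 3 (limma, adjusted p = 0.0718 and 0.0513). With all muscles kept, Col7a1 lost its call with the replicate block and with GC correction and block (limma, adjusted p = 0.0632 and 0.0887). Col16a1 lost it with GC correction and block (limma, adjusted p = 0.0612), and Col14a1 under quantile normalization (log2 fold change -0.61, limma, adjusted p = 0.0747).

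Col22a1, a collagen of the junction between muscle and tendon, had a wide relative spread among the C26 muscles. It had 0.55, 0.14 and 5.61 FPKM there and 1.97, 3.93 and 3.04 FPKM in the controls, so C26 replicate 3 lay above all controls and the other C26 muscles below them. Its log2 fold change was -0.84 (SE 0.808, limma, adjusted p = 0.441), and without C26 replicate 3 it was -1.77 (limma, adjusted p = 0.013). The summed level of tendon cell markers was also highest of the C26 muscles in replicate 3, with 11.3, 10.4 and 40.6 TPM in C26 replicates 1, 2 and 3, and 39.6, 77.6 and 88.9 TPM in the controls. The part of these cells in the Col22a1 values was not tested. Col8a1, a short-chain network collagen of vessels, had 0.27, 0.21 and 0.43 FPKM against 1.03, 0.69 and 0.62 FPKM, with a log2 fold change of -0.51 (limma, adjusted p = 0.0696). Col20a1 was the only other collagen of this class with a control mean of at least 1 FPKM, and its groups overlapped, with 1.71, 2.61 and 1.42 FPKM in the C26 muscles and 2.25, 1.92 and 1.78 FPKM in the controls.

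The remaining 8 genes did not pass the test, and all had control means below 0.5 FPKM. The transmembrane collagens had log2 fold changes of -0.35 (Col13a1), -0.29 (Col23a1) and -0.04 (Col25a1), and Col17a1, the transmembrane collagen of hemidesmosomes, had one of 0.09. Those of Col9a3, Col12a1, Col28a1 and Col8a2 were -0.35, -0.01, -0.21 and 0.06. The sign of differences this close to 0 depended on the scaling for Col12a1, Col23a1 and Col28a1. With 0.1 added in place of 1, Col8a1, Col13a1 and Col9a3 were also lower, with log2 fold changes of -1.03, -1.27 and -1.45.

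The make-up of the collagen transcripts is given here as a description without a test. Fibrillar genes held 51.9%, 50.1% and 55.5% of the collagen FPKM in control replicates 1, 2 and 3, and 26.8%, 16.2% and 35.3% in C26 replicates 1, 2 and 3. Microfibrillar genes went from 20.9%, 22% and 20.6% in the controls to 12.2%, 7.05% and 11.6% in the C26 muscles. Basement membrane genes held 21%, 21% and 15.1% in the controls and 50.1%, 60.7% and 35.4% in the C26 muscles. The ranges of the 2 groups did not overlap for any of these classes. Col4a1 and Col4a2 together held 13.3% ± 2.72 of collagen FPKM in controls and 45.3% ± 12.5 in C26 muscles (mean ± SD, n = 3), while their summed level was 41.0 ± 15.4 and 27.9 ± 2.28 FPKM. The larger share in C26 muscles was thus not a larger level.

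**Figure D3:**
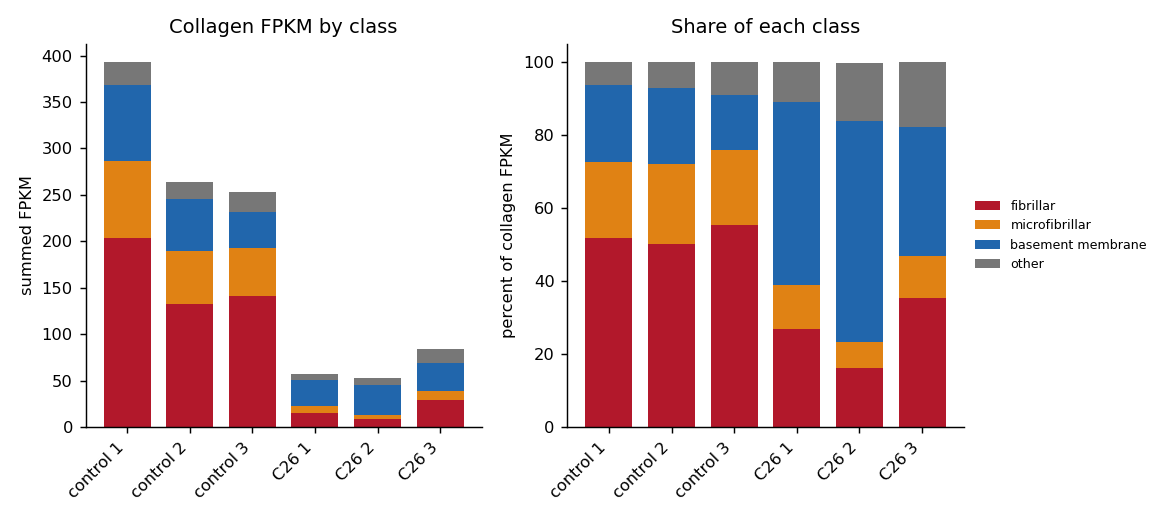
Summed FPKM of the collagen classes in each muscle (left) and the percent of collagen FPKM held by each class (right), without Col19a1. Fibrillar genes are the largest class in all 3 controls, and basement membrane genes are the largest in all 3 C26 muscles, though in C26 replicate 3 they exceed the fibrillar genes by only 35.4% to 35.3%.

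Ratios of 2 chains within a muscle do not depend on how the libraries were scaled. In all, 8 ratios were compared by two-sided exact permutation tests over the muscles, for which 0.1 is the smallest p that 3 against 3 allow, so none could pass 0.05. The Col1a1 to Col4a1 ratio was 0.181, 0.0917 and 0.346 in C26 muscle against 1.08, 1.08 and 2.46 in control muscle (exact permutation p = 0.1, BH-adjusted p = 0.16). The Col6a1 to Col4a1 ratio was 0.256, 0.119 and 0.347 against 1.23, 1.33 and 1.96 (exact permutation p = 0.1, BH-adjusted p = 0.16). In both cases every C26 muscle was below every control, with differences of -2.99 and -2.75 on the log2 scale. Within type IV collagen, the Col4a1 to Col4a2 ratio stayed close, at 1.48 ± 0.111 in C26 muscles and 1.38 ± 0.145 in controls (exact permutation p = 0.4, BH-adjusted p = 0.457), and the groups overlapped.

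Chains of types I, III, V and VI were compared in the same way. Type I collagen uses 2 α1 chains for 1 α2 chain, and the Col1a1 to Col1a2 ratio was 0.505, 0.614 and 0.594 in C26 muscles and 0.741, 0.745 and 0.904 in controls. The Col5a1 to Col5a2 ratio was 0.379, 0.545 and 0.588 against 1.39, 0.966 and 1.15. The Col6a1 to Col6a2 ratio was higher in C26 muscles, at 1.87, 2.10 and 1.95 against 1.4, 1.36 and 1.57. The groups were apart for each of these 3 ratios (exact permutation p = 0.1, BH-adjusted p = 0.16). They overlapped for Col1a1 to Col3a1 (0.95 ± 0.202 and 0.611 ± 0.23, exact permutation p = 0.2, BH-adjusted p = 0.267). The same was true of Col6a1 to Col6a3 (6.66 ± 1.5 and 5.86 ± 1.15, exact permutation p = 0.5, BH-adjusted p = 0.5). With 1 FPKM added to both genes, the log2 difference went from -1.22 to -0.65 for Col5a1 to Col5a2. It went from 0.45 to 0.19 for Col6a1 to Col6a2 and from 0.18 to -0.75 for Col6a1 to Col6a3.

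**Figure D4:**
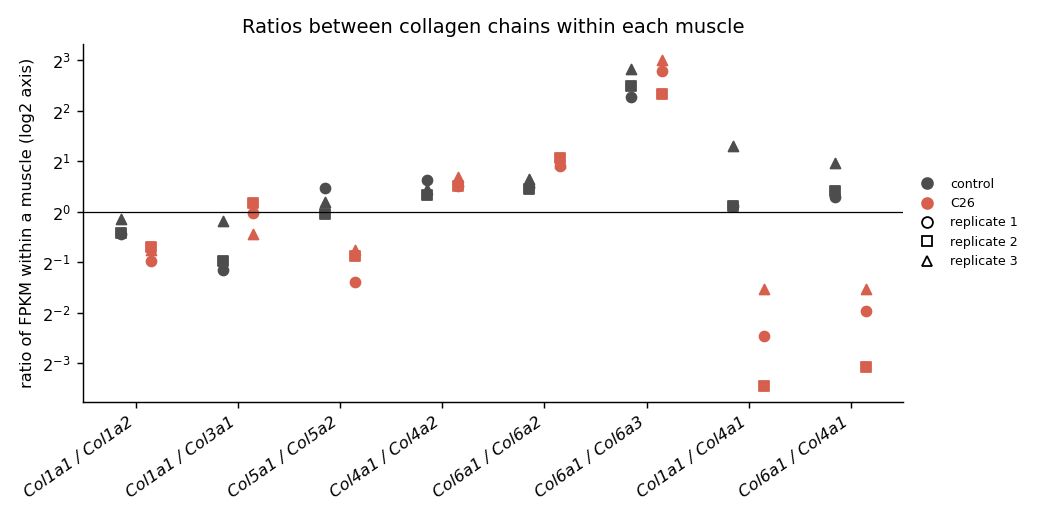
Ratio of FPKM between 2 collagen chains within each muscle, on a log2 axis, with controls in gray, C26 muscles in red and a symbol shape for each replicate. The ratios of Col1a1 and Col6a1 to Col4a1 lie below 0.35 in the C26 muscles and above 1 in the controls, while Col4a1 to Col4a2 overlaps.

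The muscles of a group often took the same order among the collagens that were lower. Among these 18 genes, C26 replicate 3 was the highest C26 muscle for 15 and C26 replicate 2 the lowest for 14, and control replicate 1 was the highest control for 15, while the lowest control was replicate 2 for 7 and replicate 3 for 10. Over all 33 genes the first 3 counts were 20, 20 and 23. Markers of cell types, without collagens, are given beside these values, and 14.5% of all genes were lower. Of 17 fibroblast markers 7 were lower, 0 were higher (also 0 at an unadjusted p under 0.05 in limma) and the median log2 fold change was -0.61. Their summed level was 1010, 770 and 1280 TPM in C26 replicates 1, 2 and 3, and 2260, 1800 and 1400 TPM in control replicates 1, 2 and 3. The members that changed most were Clec3b (log2 fold change -2.22), Dpt (-2.19) and Serpinf1 (-2.19). The sums of endothelial markers were 368, 373 and 413 TPM in C26 replicates 1, 2 and 3, and 571, 334 and 271 TPM in control replicates 1, 2 and 3. Of these 12 markers 2, Kdr and Emcn, were lower. Pericyte and smooth muscle markers were lower in 2 of 9 (Pdgfrb and Kcnj8) and Schwann cell markers in 2 of 9 (S100b and Pmp22). Fat cell markers were lower in 6 of 9. Their sums were 784, 517 and 913 TPM in C26 replicates 1, 2 and 3, and 8280, 4530 and 1080 TPM in control replicates 1, 2 and 3. Tendon cell markers were lower in 2 of 6, Fmod and Scx, and Tnmd, Mkx and Kera were not among the deposited genes. Cartilage and bone markers were lower in 1 of 2, with Acan, Hapln1 and Matn1 not among the deposited genes. Immune markers were lower in 0 of 6 (2 at an unadjusted p under 0.05 in limma), and their sum reached 1730 TPM in control replicate 3 against 32.7 to 435 TPM in the other muscles. Myofiber markers were lower in 2 of 11, Pvalb and Mylpf. Their sum was 158000, 126000 and 207000 TPM in C26 replicates 1, 2 and 3 and 234000, 254000 and 229000 TPM in the controls, so the groups were apart. In 7 of these 11 every C26 muscle lay below every control, against 34.6% of all genes. The part of myofiber RNA in the collagen values was not tested. For the endothelial, pericyte, Schwann and myofiber lists the shares that passed the test lie near that of all genes. With a muscle left out, the counts of lower markers ranged from 0 to 7 for fibroblasts, from 0 to 3 for tendon cells and from 0 to 9 for fat cells. Without C26 replicate 1 all 3 of these counts were 0, in a fit that called 5.01% of all genes lower. The median log2 fold change was then -0.76 for fibroblast and -1.11 for tendon markers, against -0.61 and -1.32 with all muscles. With each muscle left out in turn, the call held in 5 of 6 fits for S100b and in 4 for Clec3b and Mylpf. It held in 2 of 6 for Dpt, Kdr, Pdgfrb, Kcnj8, Fmod, Pvalb and the fat genes Adipoq, Retn and Plin1, in 1 for Emcn, Serpinf1, Scx and the bone gene Alpl and in 0 for Pmp22.

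**Figure D5:**
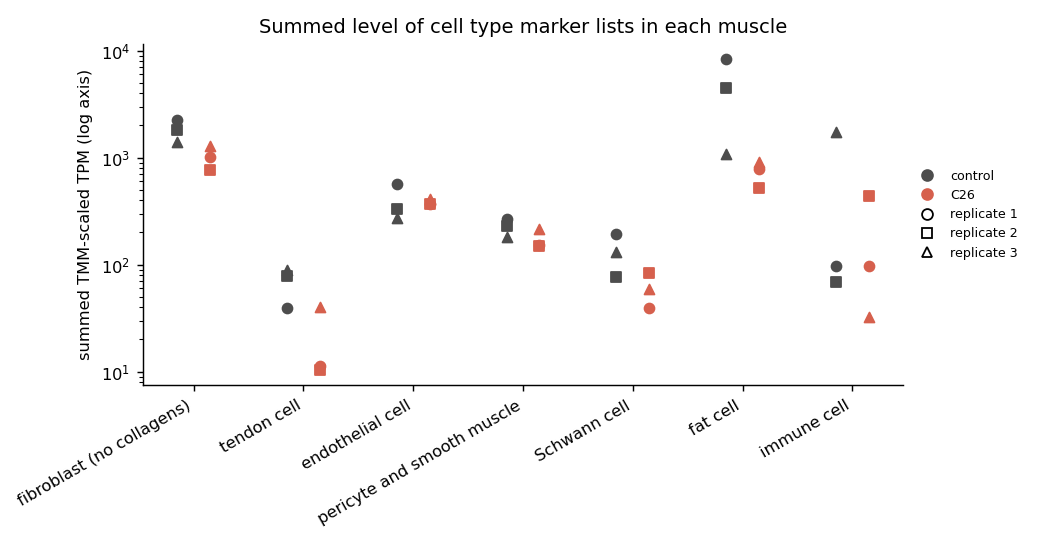
Summed TMM-scaled TPM of cell type marker lists in each muscle, on a log axis, with controls in gray and C26 muscles in red. The fibroblast sum is 770 to 1280 in the C26 muscles and 1400 to 2260 in the controls, the endothelial sums overlap, and control replicate 3 stands apart in the immune list.

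Fibrillar and type VI genes were also set against fibroblast genes of the same muscle. These ratios were chosen after their values could be seen and were not tested. The Col1a1 to Pdgfra ratio was 1.37, 1.01 and 2.94 in C26 muscle against 11.4, 8.51 and 12.3 in control muscle, Pdgfra being a receptor gene that marks resident fibroblasts of muscle. The Col6a1 to Pdgfra ratio was 1.95, 1.30 and 2.94 against 13.0, 10.4 and 9.80. Relative to Clec3b, itself lower in C26 muscles, Col1a1 was at 0.246, 0.434 and 0.388 against 0.595, 0.592 and 0.782. Relative to Pdgfra, every C26 muscle lay below every control for all 8 fibrillar genes and for Col6a1, Col6a2 and Col6a3. Relative to Clec3b this was so for 4 of the 8 fibrillar genes and for 2 of the 3 type VI genes. There the groups overlapped for Col5a1, Col5a3, Col24a1 and Col6a3, and Col5a2 was higher in every C26 muscle (0.128, 0.204 and 0.122 against 0.0962, 0.115 and 0.0818). In FPKM, every C26 muscle already lay below every control for all 8 fibrillar and these 3 type VI genes. How many of all genes give such ratios was not counted, so these counts have no share to stand against. Pdgfra itself had 2.03, 1.63 and 1.96 FPKM in the C26 muscles and 3.26, 2.87 and 2.98 FPKM in the controls (log2 fold change -0.38, limma, adjusted p = 0.0828). For Col4a1, the ratio to Pecam1, an endothelial gene, was 0.883, 0.946 and 1.06 in C26 muscle against 1.70, 1.60 and 0.556 in control muscle, so the groups overlapped. The part of a change in cell numbers in the collagen decrease was not tested.

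Genes that work on collagens were examined by their roles, and their counts stand against 14.5% lower and 19.4% higher among all genes. Of 18 genes for modification and folding of the chains in the endoplasmic reticulum, 5 were lower and 4 higher, with a median log2 fold change of -0.20. Serpinh1, the collagen chaperone HSP47, went from 22.0 ± 6.37 FPKM in controls to 7.54 ± 0.813 FPKM in C26 muscles (log2 fold change -1.24, limma, adjusted p = 0.0112). Crtap, a subunit of the prolyl 3-hydroxylase complex, was lower too (-1.36). P4hb, which serves both prolyl 4-hydroxylase and disulfide exchange, rose from 65.0 ± 4.07 to 136 ± 65.4 FPKM (1.16), with a wide spread among C26 muscles. Of 11 genes for propeptide removal and crosslinking, 4 were lower and 1 was higher. The C-proteinase Bmp1 went from 10.2 ± 1.89 to 2.82 ± 0.681 FPKM (log2 fold change -1.48) and its enhancer Pcolce from 32.8 ± 5.87 to 6.96 ± 4.58 FPKM (-2.08). Lox, the lysyl oxidase that crosslinks fibrils, went the other way, with 5.42, 10.6 and 5.56 FPKM in the C26 muscles and 4.30, 1.60 and 1.57 FPKM in the controls (log2 fold change 1.57, limma, adjusted p = 0.0222).

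Among proteins that bind collagen fibrils, more were lower than higher. Of 15 fibril-associated proteins 8 were lower and 1 was higher, against 14.5% and 19.4% of all genes, with a median log2 fold change of -1.21. The lower count was 4 without C26 replicate 2 or control replicate 2, 5 without C26 replicate 1 and 6 to 10 in the other fits with a muscle left out. Postn, the matrix protein periostin, went from 6.75 ± 2.12 to 0.47 ± 0.305 FPKM (log2 fold change -2.62), and Fmod, fibromodulin, from 15.4 ± 12.2 to 0.857 ± 0.931 FPKM (-3.05), with controls from 3.07 to 27.6 FPKM. Thbs1, the gene of thrombospondin 1, rose from 0.31 ± 0.0458 to 2.85 ± 1.42 FPKM (1.93). Of 11 basement membrane partners 4 were lower and 0 higher (1 at an unadjusted p under 0.05 in limma), with a median of -0.93. The lower count was 1 without C26 or control replicate 1, 2 without C26 or control replicate 2, 4 without C26 replicate 3 and 7 without control replicate 3. They included the linker Nid2 (-1.49) and the laminin chain Lama4 (-1.19), and Sparcl1 (-1.56). Lama2, the main laminin α chain of myofibers, had 4.72, 3.32 and 8.48 FPKM in the C26 muscles and 4.44, 4.94 and 3.42 FPKM in the controls (limma, adjusted p = 0.369), and was named after its values were seen. Of 9 collagen receptors 3 were lower and 1 higher. The lower ones were Itga11 (-1.18), Mrc2 (-1.10) and Cspg4 (-1.48), and the higher one was Itgb1, the shared β1 chain of collagen-binding integrins (0.65, named after its value was seen).

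Of 14 breakdown enzymes and inhibitors 3 were lower and 2 higher, with a median log2 fold change of 0.06. Ctsl, the lysosomal protease cathepsin L, rose from 73.0 ± 18.3 to 335 ± 50.01 FPKM (log2 fold change 2.43, limma, adjusted p = 0.00225), and the proteases Mmp15 (-1.57) and Fap (-1.46) fell. Of 25 genes of TGF-β signaling and collagen gene regulation 4 were lower and 4 higher, with a median of 0.22. All genes had 14.5% lower and 19.4% higher, and the shares of both lists lie near these. Scx, a transcription factor of tendon cells, went from 5.87 ± 0.394 to 1.33 ± 1.33 FPKM (-1.78), and Ltbp4, a latent TGF-β binding protein, from 20.6 ± 4.93 to 5.26 ± 2.32 FPKM (-1.71). Smad4, the shared mediator of the pathway, rose from 11.9 ± 0.522 to 28.4 ± 4.79 FPKM (1.41). With a muscle left out, the lower counts ranged from 2 to 5 for folding, 2 to 5 for crosslinking, 2 to 4 for receptors, 1 to 4 for breakdown and 1 to 6 for TGF-β genes, and the higher counts from 1 to 4, 0 to 2, 0 to 1, 1 to 3 and 2 to 7. Without C26 replicate 1 each of these 5 lower counts was at the bottom of its range. With each muscle left out in turn, the call held in all 6 fits for Crtap, Bmp1, Postn, Thbs1, Nid2, Itga11, Mrc2, Ctsl, Fap and Smad4. It was lost without C26 replicate 1 for Serpinh1 (limma, adjusted p = 0.051), P4hb, Pcolce, Lox, Fmod, Sparcl1, Lama4, Cspg4, Mmp15, Scx and Ltbp4. All of these but Serpinh1 lost it without at least 1 control as well, with values up to 0.113. P4hb, Scx, Lox, Fmod, Lama4 and Cspg4 also lost it without C26 replicate 2. The call held in only 1 of 6 fits for P4hb and Scx and in 2 for Lox, Fmod, Lama4 and Cspg4. The higher count of receptors, which was Itgb1 with all muscles, was 0 without C26 or control replicate 1 or 2.

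Col19a1 (12823, chr1:24261890-24587472, minus strand), the gene of a fibril-associated collagen, stood apart by level. It had 12376, 11734 and 37707 FPKM in the C26 muscles and 26275, 31581 and 33209 FPKM in the controls, whereas the highest value of any other collagen was 82.1 FPKM. By level it ranked between 1 and 6 among all genes in each muscle and held 2.16% to 6.44% of the summed FPKM, next to the genes of the contractile apparatus. C26 replicate 3 was above all controls and the other C26 muscles were below them, so the groups overlapped. The log2 fold change was -0.56 (SE 0.487, limma, adjusted p = 0.396), with a 95% interval from -1.73 to 0.61. Without C26 replicate 3 it was -1.07 (limma, adjusted p = 0.00788). Of the 37 mitochondrial genes of the RefSeq annotation, 0 were among the deposited genes. The longest exact match between Col19a1 transcripts and the 37 mitochondrial transcripts was 13 bases, and reads were 50 bases long. No 50-base window of its 3 annotated transcripts, the longest of 5441 bases, was shared with another gene of the annotation. Where its reads came from was not tested, so its values are not read as the level of type XIX collagen.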

How the data were processed

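RNA of gastrocnemius muscle from 3 C26 and 3 control mice was sequenced, and groups were taken from the sample labels. The deposited values are FPKM per Entrez gene, which the authors made from single-end reads of 50 bases with RSEM, after alignment to GRCm38.p5 per the study's methods. The submitters' processing notes list HISAT2 2.0.4, Bowtie2 2.2.5, RSEM 1.2.12 and the build mm9, so aligner and build differ between sources, and their extraction text also names a human cell line. No deposited FPKM is 0, and the lowest value, 0.01, was reached by 171 genes in some muscle. Whether genes with a 0 were left out or such values were raised cannot be told from the values. Low FPKM did not fall on whole reads (mean cosine 0.166 to 0.384, where 1 means whole reads), so the depth is unknown and no counting interval is given. FPKM sums were 531061 to 688300.

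Symbols were matched for 13327 of 13363 IDs. FPKM were rescaled to TPM, divided by TMM factors with equal weights (30% and 5% trimmed, factors of 0.903 to 1.08), and log2-transformed after adding 1, which understates changes of low genes. Groups were compared with limma 3.58.1 (R 4.3.3) with empirical Bayes moderation and Benjamini-Hochberg adjustment over all 13363 genes, with no filter on low values. The fit was tried on simulated data with 200 changed genes, of which it recovered 178, with 9 false calls. Genes of low level were not among those changed, so this trial does not cover the calls of low collagens. Chain ratios were tested with SciPy 1.17.1 and drawn with matplotlib 3.10.9. Positions and transcripts were taken from GENCODE for GRCm38. Collagens that passed the test are named with every value. From each list at most 3 genes that passed the test are named, by the size of their log2 fold change. Itgb1 is named beyond this rule, after its value was seen. The members and lists were chosen with earlier results of these data known.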

Additional observations from a re-analysis of the deposited data

How the results depend on the processing

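The collagen and class counts and the pathway totals were recomputed under 11 other settings and with each muscle left out. So were the medians of fibroblast, endothelial and tendon markers and the log2 fold changes of single collagens. Counts of single lists were recomputed only with a muscle left out. Chain ratios were recomputed with 1 FPKM added, with a replicate block and with a muscle left out. Counts of genes with groups apart and of motifs were not recomputed. The 18 lower collagens became 14 to 21 under the settings and 11 to 20 with a muscle left out, 11 without C26 replicate 1, while 8.81% to 18.7% and 5.01% to 16.2% of all genes were lower, and 0 collagens were higher in any fit. The 9 past the fold of 4 became 8 to 12 and 8 to 10. The 8 fibrillar genes became 7 to 8 and 6 to 8, and the 3 microfibrillar genes 3 and 3 to 4. The 4 lower basement membrane genes became 2 with a mean TPM of at least 1 or quantile normalization, and 2 to 4 with a muscle left out (2 without C26 replicate 1 or 2). The 3 other collagens became 6 with 0.1 added, 1 with a GC correction and replicate block, and 0 to 5 with a muscle left out (0 without C26 or control replicate 1, 5 without C26 replicate 3). The pathway genes, 31 lower and 13 higher, became 42 lower and 8 higher with FPKM as deposited. Among all genes the lower share then went from 14.5% to 18.7%. With a muscle left out the pathway genes were 14 to 40 lower and 6 to 20 higher, while 5.01% to 16.2% of all genes were lower. These pathway counts moved by over 1.5 times without C26 replicates 1, 2 or 3 or control replicates 1 or 2. The median of tendon markers, -1.32, was -2.13 with 0.1 added. The Col6a1 to Col6a3 log2 difference, 0.18, was -0.75 with 1 FPKM added, which also took Col5a1 to Col5a2 from -1.22 to -0.65 and Col6a1 to Col6a2 from 0.45 to 0.19. Signs near 0 turned for Col4a4 (0.0951), Col6a6 (0.000491), Col23a1 (0.0431), Col28a1 (0.0739) and Col12a1 (0.143) under quantile normalization, for Col12a1 (0.0037) without the 20 most abundant genes and for Col20a1 (-0.0521) with FPKM as deposited. They also turned with a muscle left out, over ranges of -0.559 to 0.0492 for Col4a1, -0.0704 to 0.0631 for Col12a1, -0.0221 to 0.158 for Col8a2, -0.07 to 0.28 for Col20a1 and -0.0376 to 0.233 for Col17a1. The causes were not tested. No pairing of the muscles by replicate number was seen. Same-numbered muscles correlated at -0.0394, -0.0843 and -0.112, and 0 of 6 correlated best with their own number. With 3 muscles per group this check cannot exclude pairs, and the sample labels name none. With the replicate block 16 collagens were lower. A scaling without Col19a1 was added after the data had been seen and gave 18 lower collagens. Depth is unknown, so differences between genes below 0.5 FPKM cannot be set against counting error.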
